A study of Mus musculus with 36 samples.

Results

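Contractile actin and smooth muscle genes were followed through the differentiation of Xmas mouse embryonic stem cells (mESCs). The group consisted of 8 genes, Acta2, Actg2, Tagln, Cnn1, Tpm1, Tpm2, Myl9 and Cald1, out of 25965 genes in the deposited expression table. They were taken by symbol, each had 1 row, and 7 of the 8 passed the filter of at least 1 RPM (the usual unit of reads scaled to library depth) in at least 4 libraries, which left 14612 genes for testing. Actg2 did not pass. Acta2 passed only through libraries of days 5 to 8, and Cnn1 would not have passed without those of days 4 to 8. Their tests therefore describe genes selected through the days on which they were high. The same holds for other genes without early reads, such as the cardiac actin gene Actc1.

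Xmas mESCs are female C57/Bl6 lines derived so that GFP marks one X chromosome and mCherry the other, each inserted behind Hprt. The cells were kept in 2i, a medium with 2 kinase inhibitors that holds the naive state, and were weaned stepwise into a serum medium without LIF. RNA was collected on day 0 and on each day up to day 8, with 4 libraries a day and 36 in all. On every day replicate 1 was line X14 double, replicate 2 X14 single, replicate 3 X18 double and replicate 4 X18 single, and the words double and single are used only as names because the labels do not explain them. The differentiation was not directed to a lineage, and the mESC lines X14 and X18 are the only lines in the course. The labels do not say that the libraries of a group came from separate cultures beyond the line and the word in the name, so p-values measure the spread between these libraries.

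Smooth muscle cells contract through actin filaments and myosin II. Acta2 and Actg2 encode the vascular and enteric smooth muscle actins, Tpm1 and Tpm2 encode tropomyosins that lie along the filament, and Cald1 (caldesmon), Cnn1 (calponin) and Tagln (transgelin, also known as SM22 alpha) encode filament-binding proteins. Myl9 encodes the regulatory light chain whose phosphorylation switches on smooth muscle myosin. Many of these genes are known targets of serum response factor (SRF), which binds a DNA element called the CArG box together with myocardin in smooth muscle or with the actin-sensing MRTF cofactors in many other cells. Several members, among them Tpm1, Cald1 and Tagln, are also made by other adherent cells that build stress fibres, and so none of them marks smooth muscle alone.

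The promoters of Acta2 and Myl9 are shown because their letters held matches to the CArG box, and that of Srf because the gene encodes the factor. The 250 bases before the annotated start are given 5′ to 3′ from RefSeq on GRCm38.p6, which has the coordinates of the mm10 build used by the deposited table, with capitals marking each match.
Acta2 (chr19:34255374-34255623, minus strand): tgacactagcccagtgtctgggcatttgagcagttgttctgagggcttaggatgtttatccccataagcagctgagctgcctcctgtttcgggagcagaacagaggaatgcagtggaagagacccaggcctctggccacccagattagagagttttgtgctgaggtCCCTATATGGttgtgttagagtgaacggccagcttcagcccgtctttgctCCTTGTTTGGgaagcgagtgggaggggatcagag
Myl9 (chr2:156775214-156775463, plus strand): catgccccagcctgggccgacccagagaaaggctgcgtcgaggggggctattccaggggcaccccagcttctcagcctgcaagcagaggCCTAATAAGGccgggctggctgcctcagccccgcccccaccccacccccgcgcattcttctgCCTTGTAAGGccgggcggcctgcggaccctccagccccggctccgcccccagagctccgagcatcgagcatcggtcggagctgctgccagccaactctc
Srf (chr17:46556163-46556412, minus strand): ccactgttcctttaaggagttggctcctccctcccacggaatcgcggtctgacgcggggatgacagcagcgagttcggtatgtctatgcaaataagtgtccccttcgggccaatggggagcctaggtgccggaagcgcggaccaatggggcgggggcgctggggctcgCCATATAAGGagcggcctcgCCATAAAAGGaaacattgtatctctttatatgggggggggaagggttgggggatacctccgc
The search took CC, then 6 bases that are each A or T, then GG, which reads the same on both strands. In windows of 250 bases before to 50 bases after a start, 1.63% of 32851 promoters held a full match, and 9.98% held a full match or one with a single G or C among the 6 bases. Of the 6 members with an entry (Acta2, Cnn1, Tpm1, Tpm2, Myl9 and Cald1), only Myl9 held a full match, beginning 161 bases before the start, and it held a second match with 1 mismatch at 99 bases. Acta2 had matches with 1 mismatch at 84 and 34 bases before its start and no full match. Srf held 2 full matches, at 82 and 62 bases. Cnn1, Tpm1, Tpm2 and both entries of Cald1 had no match in these windows. The matches are descriptions of the letters and do not show binding. Tagln and Actg2 had no entry.

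Sequencing was shallow, with 612740 to 2445826 reads in genes per library (median 1297944), and the floor of 3 reads corresponded to 1.04 to 3.90 RPM. Levels are given as RPKM (RPM per kilobase of exon), which corrects for depth and exon length only. It does not remove a shift of all genes between libraries. Comparisons between genes rest on the exon length used, which for Cald1 was 7687 bases, against 12041 exonic bases in GENCODE M21. The median of all genes tested lay 0.23 above day 0 on day 8 on the log2 scale, 0.24 above on day 6 and 0.26 above on day 7. The library of day 5 replicate 1 was the shallowest. X-linked expression was compared as the median difference of X-linked genes less that of autosomal genes (double minus single, log2 scale). On day 0 the X14 libraries went against the pattern of all other pairs, at -1.14. In the other 17 pairs of a day and line the value was 0.25 to 1.05. Comparisons of the labels were therefore made on days 1 to 8.

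All 7 members tested were higher than on day 0 from day 5 onwards, and they passed the threshold on different days. Tpm1 alone was called on day 2, Tpm1 and Myl9 on day 3, all but Acta2 on day 4, and Acta2 on day 5. A gene was called when its limma adjusted p (Benjamini-Hochberg) was under 0.05 and its log2 fold change at least 1. The order of the calls thus depends on read numbers as well as on the size of a change. On day 2 Myl9, with 14 reads, changed by 1.85 ± 0.71 (SE, log2 scale) and was not called. Tpm1, with 559 reads, changed by 1.03 ± 0.21. Cald1 passed the p on day 2 (limma adjusted p = 0.048) but not the fold, at 0.86 ± 0.26. All adjusted p given for single genes are those of limma. A fitted change that involves libraries without reads depends on the 0.9 read written for them, which concerns Acta2, Tagln, Cnn1 and Myl9. These are bulk RNA samples, in which fewer cells of a type and less RNA per cell cannot be told apart. Among all genes tested, 2.09% were called higher on day 2 and 5.72% on day 3, and this rose to 12.2% for day 4, 15.8% for day 5, 22.4% for day 6, 23.8% for day 7 and 23.9% for day 8. On day 1 limma called 0 members, 1 had an unadjusted p under 0.05, and voom called 0. The call on day 2 depended on the settings, with 0 members after scaling to the 75th percentile and without replicate 3 or replicate 4, and 2 members without replicate 1 or with a replicate block. The number for day 3 was 1 without replicate 2 or replicate 4 and 3 with the block. Over the 9 days together, all 7 differed in the limma F test at an adjusted p under 0.05, as did 65.2% of all genes tested.

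**Figure D1:**
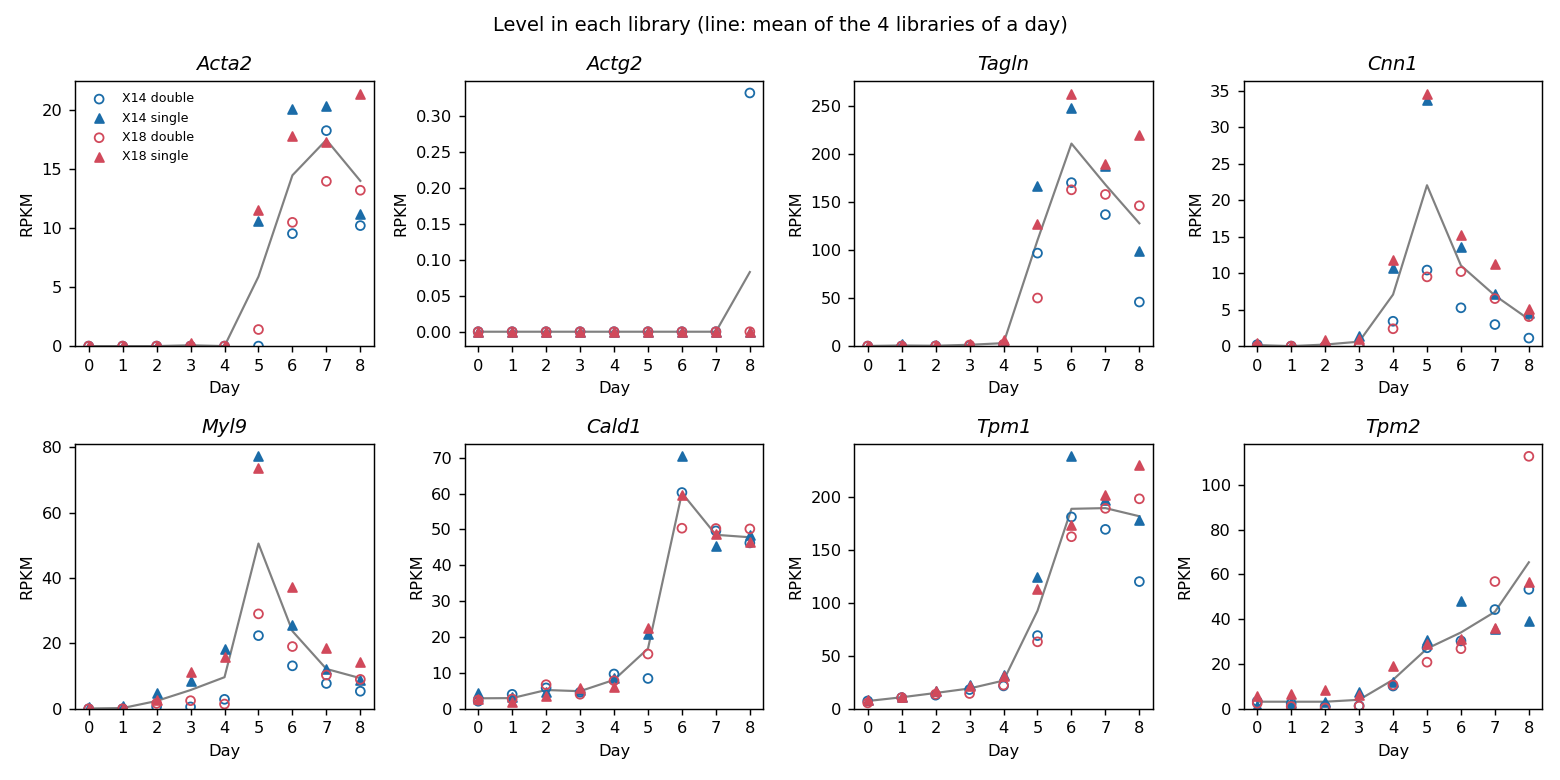
Level of each member in RPKM (y axis, each panel with its own scale) against the day of differentiation (x axis). Symbols are single libraries, open circles for double and filled triangles for single, blue for line X14 and red for X18, and the grey line joins the means of the 4 libraries. Acta2 stays at or near 0 until day 4, Cnn1 and Myl9 are highest on day 5, and Tpm2 is highest on day 8.

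The steps from a day to the next fell on 3 days. From day 3 to day 4, Cnn1 and Tpm2 were called higher, against 3.33% of all genes. From day 4 to day 5, Acta2, Tagln, Tpm1 and Myl9 rose, against 4.83% (5 members with the replicate block and 7 by voom), and from day 5 to day 6 Acta2, Tpm1 and Cald1 rose, against 7.14%. No member was called from day 1 to 2 or from day 2 to 3 (2 and 1 at an unadjusted p under 0.05 in limma, 0 called by voom). From day 6 to 7 and from day 7 to 8, limma and voom called 0 members, 0 had an unadjusted p under 0.05 in limma, and 0.472% and 0.301% of all genes were higher. Without replicate 1 or replicate 3, or without the library of day 5 replicate 1, 1 member rather than 3 was called from day 5 to 6. The step to day 4 had 1 member when any replicate was left out.

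**Figure D2:**
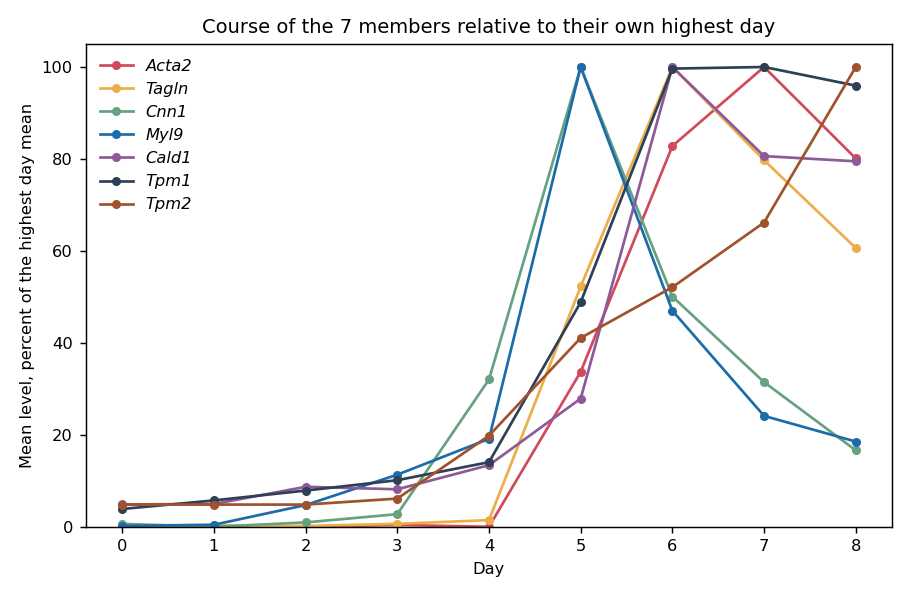
Mean level of each of the 7 members on a day as a percentage of its own highest daily mean (y axis) against the day (x axis). On day 5 Cnn1 and Myl9 stand at 100% while Cald1 stands at 27.9% and Acta2 at 33.7%, and on day 8 Cnn1 is back at 16.6% and Myl9 at 18.5%.

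Acta2, the smooth muscle alpha actin, went from no reads to a moderate level within 2 days. It lies at chr19:34241090-34255336 on the minus strand (mm10). On days 0 to 2 and on day 4 none of the 4 libraries had a read, and on day 3 only X18 single had 1 read. On day 5 it had 0 reads in X14 double, 23 in X14 single, 4 in X18 double and 59 in X18 single, or 0, 10.6, 1.40 and 11.5 RPKM. Both single libraries were thus well above both double libraries on that day. On day 6 the 4 libraries stood at 9.52, 20.1, 10.5 and 17.8 RPKM, on day 7 at 18.2, 20.4, 13.95 and 17.3, and on day 8 at 10.2, 11.2, 13.2 and 21.4. No library of days 6 to 8 overlapped with any of days 0 to 4. Against the floor of 3 reads in each day 0 library the mean was at least 4.98-fold higher at day 5, at least 12.2-fold at day 6 and at least 14.8-fold at day 7. The limma adjusted p was 2.55e-05 on day 5 and 3.26e-09 on day 6. Acta2 passed the filter only through days 5 to 8, and its day 0 values are the 0.9 read written for 0. These p therefore add no support to the read counts.

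Actg2, the enteric smooth muscle actin at chr6:83512905-83536265 on the minus strand, was not detected at this depth. A single read fell in it over all 36 libraries, in X14 double on day 8. The striated muscle actins behaved otherwise. Acta1, the skeletal alpha actin, had no read on day 0 or day 4 and a mean of 12.7 ± 8.36 RPKM on day 5 (SD, n = 4), 11.7 ± 2.15 on day 6 and 13.3 ± 4.81 on day 8, where Acta2 had 5.89, 14.5 and 13.99. Actc1, the cardiac actin, was likewise without reads on days 0 to 4 and reached a mean of 1.21 RPKM on day 5 and 1.63 on day 6. The cytoplasmic actins were present throughout: Actb stood at 769 ± 284 RPKM on day 0 and 995 ± 29.1 on day 8, and Actg1 at 15.3 and 25.9. Of all genes tested, 15.8% were called higher on day 5 and 23.9% on day 8. Of the 5 actins tested, 4 were called higher on day 5 (Acta2, Acta1, Actc1 and Actg1) and 2 on day 8 (Acta2 and Acta1). Without replicate 1 the number for day 8 was 4, and among genes averaging 10 RPM or more it was 2 for day 5 and 1 for day 8. Windows of 75 bases, the read length, were taken from the GENCODE M21 transcripts of each member. For all 8 members 0% were found in transcripts of other genes, counting exact matches in the sense direction only. Matches on the opposite strand were not searched, so the 0% does not cover the genes opposite Tagln.

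Tagln was the member with the largest change. The row lies at chr9:45929628-45936058 on the minus strand. Over days 0 to 4 it had between 0 and 19 reads in any library, and the highest level was 6.71 RPKM in X18 single on day 4. On day 5 the libraries stood at 96.7 (X14 double), 167 (X14 single), 50.01 (X18 double) and 127 RPKM (X18 single), and on day 6 at 170.04, 247, 163 and 263. Every library of days 5 to 8 was above every library of days 0 to 4. The mean was 0.13 ± 0.27 RPKM on day 0 and 3.05 ± 2.49 on day 4 (SD, n = 4). For days 5, 6, 7 and 8 it was 110.1 ± 49.2, 211 ± 51.7, 168 ± 25.4 and 128 ± 73.8 RPKM. From day 4 to day 5 the log2 fold change was 5.35 ± 0.54 (SE, adjusted p = 6.68e-08). Against day 0, whose libraries held 1 read together, the ratio of pooled reads was 32.4 on day 4, with a 95% counting interval of 5.42 to 1316. On day 6 it was 2110, with a lower limit of 378.

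The count of Tagln has a limit of its own. The row carries the gene ID of Pcsk7, which lies on the opposite strand, and in GENCODE M21 5.43% of the exonic bases of Tagln overlap exons of Pcsk7 and 62.4% overlap Gm48529, also on the opposite strand. Whether counting used the strand is not given in the sources used here, so reads of these genes cannot be told apart in the shared bases. Pcsk7 itself had means between 1.37 and 5.52 RPKM over the 9 days, far below Tagln on days 5 to 8, and Gm48529 has no row in the table. None of the other 7 members shared an exonic base with another gene.

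Cnn1 rose a day earlier and did not stay up. The gene, which encodes the smooth muscle calponin, lies at chr9:22099281-22109630 on the plus strand. On day 3 it had 7 reads in X14 single, 5 in X18 single and 0 in both double libraries. On day 4 the 4 libraries stood at 3.41 (X14 double), 10.7 (X14 single), 2.38 (X18 double) and 11.8 RPKM (X18 single), on day 5 at 10.4, 33.7, 9.49 and 34.6, and on day 8 at 1.10, 4.51, 4.04 and 5.02. The step from day 3 to day 4 was 3.41 ± 0.64 on the log2 scale (SE, adjusted p = 0.00055). The daily mean was 22.1 ± 13.99 RPKM on day 5, and on days 6, 7 and 8 it was 11.1 ± 4.38, 6.94 ± 3.38 and 3.67 ± 1.76 (SD, n = 4). Each line and label was lower on day 8 than on day 5.

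The other calponins and transgelins did not follow Cnn1 down. Cnn2, the calponin of many nonmuscle cells, went from 5.03 ± 2.78 RPKM on day 0 to 74.3 ± 38.2 on day 5 and 148 ± 19.0 on day 8 (SD, n = 4), a log2 fold change of 5.09 ± 0.36 (SE, adjusted p = 3.39e-13). Cnn3 started high, at 262 RPKM, and stood at 189 on day 8. Tagln2 went from 39.5 to 220.1 RPKM (log2 fold change 2.58 ± 0.28, adjusted p = 3.75e-09), and Tagln3, a neuronal form, stayed at or below 3.13 RPKM. Of the 6 genes of these families, 4 were called higher on day 8, against 23.9% of all genes: Cnn1, Cnn2, Tagln and Tagln2.

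Tpm1 was the first of the members to be called. It lies at chr9:67022590-67049406 on the minus strand. On day 0 the libraries stood at 7.35, 8.50, 5.55 and 7.90 RPKM, in the order X14 double, X14 single, X18 double and X18 single. On day 2 they were at 12.8, 16.3, 13.7 and 16.7, on day 5 at 69.0, 125, 63.1 and 113, and on day 6 at 181, 238, 162 and 173. The 4 libraries of day 1 all lay above those of day 0, and those of day 2 above those of day 1. The log2 fold change against day 0 was 1.03 ± 0.21 for day 2 (SE, adjusted p = 0.0052), 3.61 ± 0.21 for day 5 and 4.61 ± 0.21 for day 8. From day 6 on the mean was level, at 188, 189 and 181 RPKM, and the ranges of these 3 days overlapped.

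Tpm2, at chr4:43514711-43523765 on the minus strand, had a flat mean until day 3 and was still at its highest on the last day. The mean was 3.17 ± 1.82 RPKM on day 0 and 4.01 ± 3.21 on day 3 (SD, n = 4). For days 4 to 8 in turn the mean of all libraries was 13.0 ± 4.26, 26.9 ± 4.26, 34.1 ± 9.42, 43.3 ± 9.83 and 65.5 ± 32.4 RPKM. On day 8 the libraries stood at 53.4, 39.3, 113 and 56.4 RPKM in the same order, so that X18 double stood well above the other 3, and the ranges of days 7 and 8 overlapped. The step to day 4 was 2.10 ± 0.63 on the log2 scale (SE, adjusted p = 0.042). Of the other tropomyosin genes, Tpm4 went from 39.0 ± 3.81 to 222 ± 22.0 RPKM between days 0 and 8 (log2 fold change 2.51 ± 0.15, adjusted p = 1.97e-15), whereas Tpm3 was at 42.1 ± 9.52 on day 0 and 42.0 ± 8.52 on day 8. On day 0 Tpm3 and Tpm4 were the abundant tropomyosins, and on day 8 they were Tpm4 and Tpm1.

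Myl9, at chr2:156775420-156781658 on the plus strand, rose early and peaked on day 5. On day 0 a single read fell in the 4 libraries. On day 3 the levels were 0.57 (X14 double), 8.52 (X14 single), 2.48 (X18 double) and 11.3 RPKM (X18 single), and on day 5 they were 22.4, 77.2, 29.0 and 73.6. On day 8 they had come down to 5.36, 8.78, 8.99 and 14.3. The mean was 50.5 ± 28.8 RPKM on day 5 and 9.37 ± 3.71 on day 8 (SD, n = 4). The step from day 4 to day 5 was 2.89 ± 0.71 (SE, log2 scale, adjusted p = 0.0049), and the ratio of pooled reads of day 3 to day 0 was 47.1, with a 95% counting interval of 8.11 to 1896. The nonmuscle light chains Myl12a and Myl12b and the essential light chain Myl6 had means between 59.5 and 77.6 RPKM on day 0, above the mean of Myl9 on day 5. Of the 5 light chain genes, 1 was called higher on day 5 (Myl9) and 2 on day 8 (Myl9 and Myl12a, the latter at 145 RPKM). Of all genes tested, 15.8% and 23.9% were called higher on these days, so the count of day 5 is near that share.

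**Figure D3:**
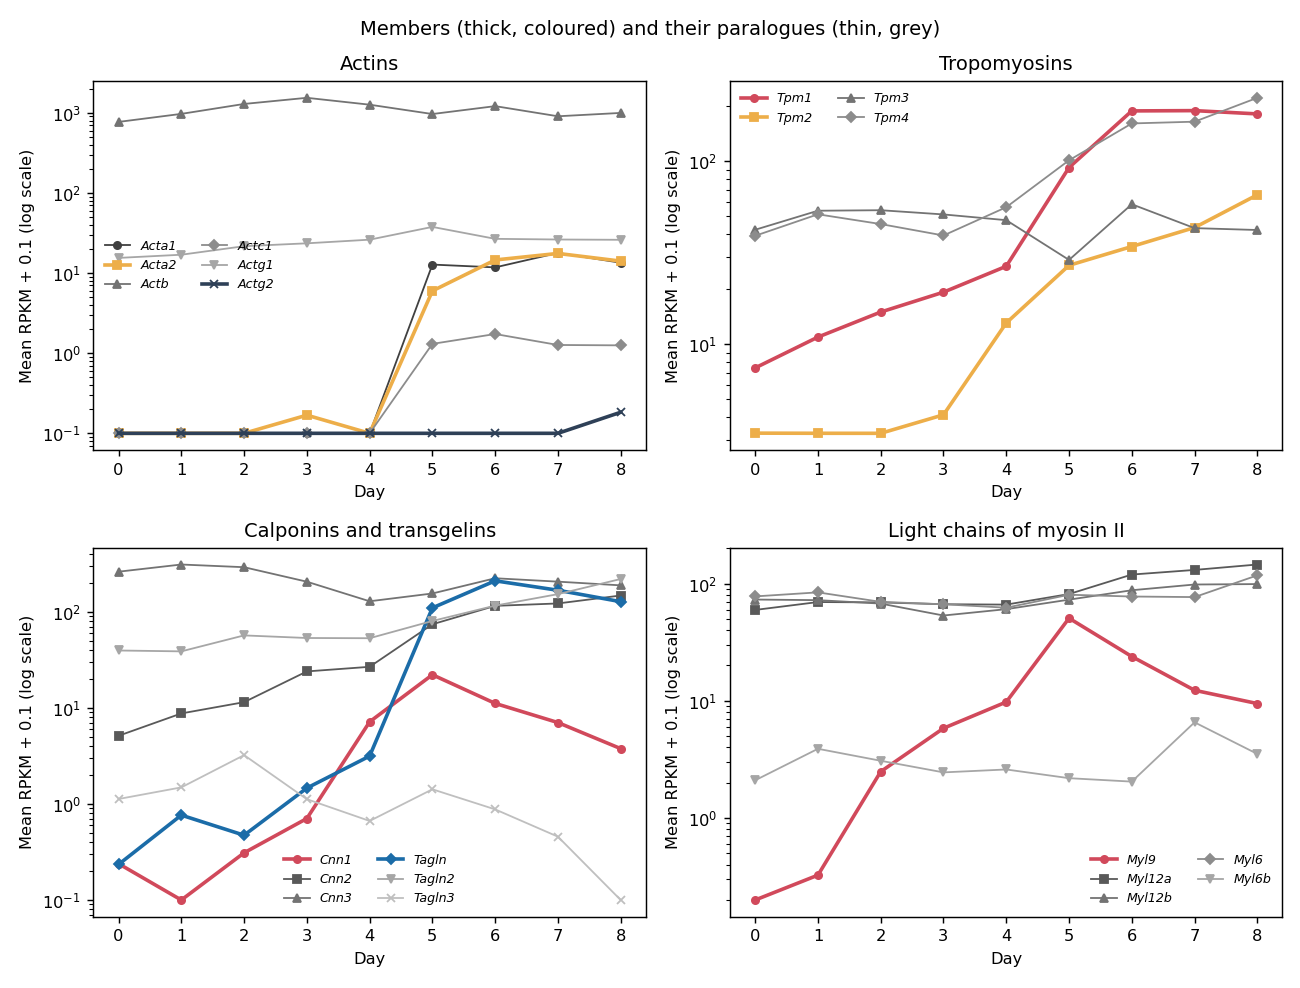
Mean level of 4 libraries plus 0.1 RPKM (y axis, log scale) against day (x axis) for actins, tropomyosins, calponins with transgelins, and light chains of myosin II, with members drawn thick and coloured and their paralogues thin and grey. Acta1 runs beside Acta2 from day 5, Cnn2 and Tagln2 are highest on day 8 while Cnn1 falls after day 5, and Myl9 stays below Myl12a, Myl12b and Myl6.

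The fall of Cnn1 and Myl9 after day 5 was tested by a comparison of day 8 with day 5 that was chosen after their values were seen. Cnn1 was lower by a log2 fold change of -2.54 ± 0.64 (SE, adjusted p = 0.0034) and Myl9 by -2.31 ± 0.71 (adjusted p = 0.016), whereas 5.57% of all genes were called lower. In the same comparison Acta2 (2.04 ± 0.57) and Cald1 (1.61 ± 0.26) were called higher, as were 12.4% of all genes. Tagln differed by 0.13 ± 0.54 and was not called. The call of Myl9 was lost without replicate 2, with -2.04 and an adjusted p of 0.089.

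Cald1, which lies at chr6:34598500-34775473 on the plus strand, took its largest step a day later than Tagln, Tpm1 and Myl9. Its libraries stood at 2.11, 4.40, 2.41 and 2.78 RPKM on day 0, at 8.46, 20.9, 15.3 and 22.5 on day 5 and at 60.3, 70.5, 50.4 and 59.6 on day 6, in the order X14 double, X14 single, X18 double and X18 single. That step was the one from day 5 to day 6, of 1.93 ± 0.26 on the log2 scale (SE, adjusted p = 4.08e-06). On days 7 and 8 it held at 48.5 ± 2.21 and 47.8 ± 1.85 RPKM (SD, n = 4), with all 8 libraries between 45.3 and 50.3. The range of day 6 lay just above that of day 7, with a lowest value of 50.4 on day 6 and a highest of 50.3 on day 7.

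The order of the members, taken by RPKM and so dependent on the exon length used, changed over the course. On day 0 Tpm1 (7.32 RPKM), Tpm2 (3.17) and Cald1 (2.92) were the only members above 1 RPKM, and the ranges of Tpm2 and Cald1 overlapped. On day 5 the order was Tagln (110.1), Tpm1 (92.3), Myl9 (50.5), Tpm2 (26.9), Cnn1 (22.1), Cald1 (16.8) and Acta2 (5.89), and the ranges of all neighbours in this order overlapped. On day 8 it was Tpm1 (181), Tagln (128), Tpm2 (65.5), Cald1 (47.8), Acta2 (13.99), Myl9 (9.37) and Cnn1 (3.67), and of these neighbours the ranges overlapped for Tpm1 and Tagln, Tagln and Tpm2, Tpm2 and Cald1, and Acta2 and Myl9. The summed level of the 8 members ranged from 10.4 to 17.1 RPKM on day 0 and from 46.4 to 90.5 on day 4. It was 189 to 464 RPKM on day 5 and 282 to 593 on day 8.

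Of the late smooth muscle markers, several that define the mature cell were at or near 0, while others rose. Myh11, the smooth muscle myosin heavy chain, had no read on days 0 to 6 or day 8 and a mean of 0.02 RPKM on day 7. Pln had no read on any day, the cofactor gene Myocd stayed at or below 0.04 RPKM, and Mylk, the smooth muscle myosin kinase, was at 0.21 RPKM on day 8. Of all genes tested, 23.9% were called higher on day 8. Of the 10 late smooth muscle markers listed, 5 passed the filter and 4 were called higher on day 8. They were Smtn, which encodes smoothelin and went from 2.77 ± 1.87 to 10.8 ± 0.83 RPKM (SD, n = 4), Nexn (0.18 to 1.94), Synpo2, which was below 1 RPKM on every day, and Lmod1. The intermediate filament gene Des was called higher on day 5, at 6.49 RPKM, but not on day 8, at 2.86. Among genes averaging 10 RPM or more, 1 marker of the list rather than 4 was called higher on day 8. The list summed to 1.79 to 9.08 RPKM in the libraries of day 0 and to 15.1 to 19.7 on day 8.

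SRF and its partners were measured beside the members. Srf stood at 5.41 ± 2.16 RPKM on day 0 (SD, n = 4) and at 16.0 ± 4.86, 22.7 ± 11.2 and 13.8 ± 3.57 on days 4, 5 and 8, and it was called higher on day 4 (log2 fold change 1.60 ± 0.30, adjusted p = 0.00013) and on day 8 (1.40 ± 0.30). The MRTF genes Mkl1 and Mkl2 were at 2.16 and 0.97 RPKM on day 0 and at 5.48 and 4.25 on day 8, where only Mkl2 was called (2.13 ± 0.48, adjusted p = 0.0005). Fhl2, a cofactor that is itself a target of SRF, had no read on day 0 and was at 9.32 RPKM on day 8. Of 7 genes of the list tested, 5 were called higher on day 8 (Srf, Mkl2, Elk3, Elk4 and Fhl2) and 0 lower, with a median log2 fold change of 1.49 against 0.23 for all genes. Of all genes, 12.2%, 15.8% and 23.9% were called higher on days 4, 5 and 8. Among 13 known SRF and MRTF targets other than the members, 3 were called higher on day 4, 7 on day 5 and all 13 on day 8 (median 1.94). They include Flna, a filament crosslinker, at 32.5 RPKM on day 0 and 70.9 on day 8, and Myh9, a nonmuscle myosin heavy chain, at 17.7 and 78.8.

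Nonmuscle contractile and adhesion genes rose in part. Of 14 tested, 10 were called higher on day 8, against 23.9% of all genes, and 0 lower, with a median of 1.61. Those that were not called include Cfl1, the actin-severing cofilin, at 468 RPKM on day 0 and 488 on day 8. Some genes are in more than 1 list, such as Flna and Myh9, so that the counts of lists are not independent. The TGF beta pathway is known to switch on smooth muscle genes. Of 12 of its genes tested, 1 was called higher on day 4 and 2 on day 5, with 1 lower on day 5. The counts called higher on these days were near the shares of all genes, 12.2% and 15.8%. On day 8 there were 6 called higher, against 23.9% of all genes. The 2 of day 5 became 1 without replicate 3 and 0 without replicate 4, and the 6 of day 8 became 2 among genes averaging 10 RPM or more. The signal transducers Smad2 and Smad4 went from 15.1 to 18.5 and from 15.9 to 29.3 RPKM between days 0 and 8, and Smad3 from 2.01 to 11.6.

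Lists of other cell types had genes called in different directions. On day 8, 23.9% of all genes tested were called higher. The share of all genes called lower than on day 0 was not counted for any day. Counts called lower, here and for the cell types that follow, therefore have no share to be read against. Counts near 23.9%, such as 3 of 11 sarcomere, 2 of 10 endoderm and 1 of 5 neural genes, are no trait of the list. All 7 simple epithelium genes were called higher on day 8 (median 6.63), with sums of 67.2 to 226 RPKM on day 0 and 2118 to 4018 on day 8. Krt18 went from 1.90 ± 0.75 to 1245 ± 518 RPKM (SD, n = 4), Epcam from 34.4 to 197 and Cdh1 from 99.5 to 236. Of the 10 pluripotent cell genes, 8 were lower on day 4 and 10 on day 8, and their sum went from 1474 to 2242 RPKM on day 0 to 137 to 346 on day 8. Of 11 fibroblast and mesenchyme genes tested (14 listed), 5 were higher on day 8 and 0 lower. The 5 were the collagen genes Col1a2 (no read on day 0, 2.84 RPKM on day 8) and Col1a1 (0.28 and 1.97), the PDGF receptor genes Pdgfra (0.12 and 1.05) and Pdgfrb (0.56 and 2.27), and Postn (no read and 0.56). The abundant genes Vim (60.0 and 38.3 RPKM, adjusted p = 0.076) and Fn1 (84.6 and 37.8, adjusted p = 0.10) were not called. The sums were 61.8 to 289 RPKM on day 0 and 67.7 to 131 on day 8, and S100a4 had no read on either day. Of 5 pericyte and vascular wall genes tested (8 listed), 2 were higher and 1 lower, with Abcc9 at 0 throughout, Notch3 at 4.18 RPKM on day 0 and 21.7 on day 8, and sums of 11.7 to 35.9 and 21.6 to 51.3.

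On day 8, when 23.9% of all genes were called higher, cardiac and skeletal muscle genes had 3 higher and 3 lower of 11 tested (17 listed). Their sums were 10.03 to 34.0 RPKM on day 0 and 20.1 to 36.3 on day 8. Of the latter Acta1 had a mean of 13.3, and Nkx2-5 had no read on any day. Endothelium genes had 0 higher and 3 lower of 5 tested on day 8 (8 listed), and their sums went from 13.4 to 44.3 down to 0.55 to 7.34 RPKM. Visceral and parietal endoderm genes had 2 higher and 1 lower of 10 tested (15 listed), with sums of 123 to 196 and 152 to 202 RPKM, most of it from Sparc, at a mean of 168 on day 8, and Ttr at 0 throughout. Primitive streak and early mesoderm genes had 2 higher of 6 tested (8 listed), T at 32.6 and Hand1 at 28.6 RPKM on day 8, and their sums went from 0 to 4.22 up to 42.7 to 111 RPKM. Of 5 neural progenitor genes tested (6 listed), 1 was higher and 1 lower, with sums of 39.2 to 60.8 and 12.9 to 19.3 RPKM. The part of any of these cell types in the levels of the members was not tested.

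**Figure D4:**
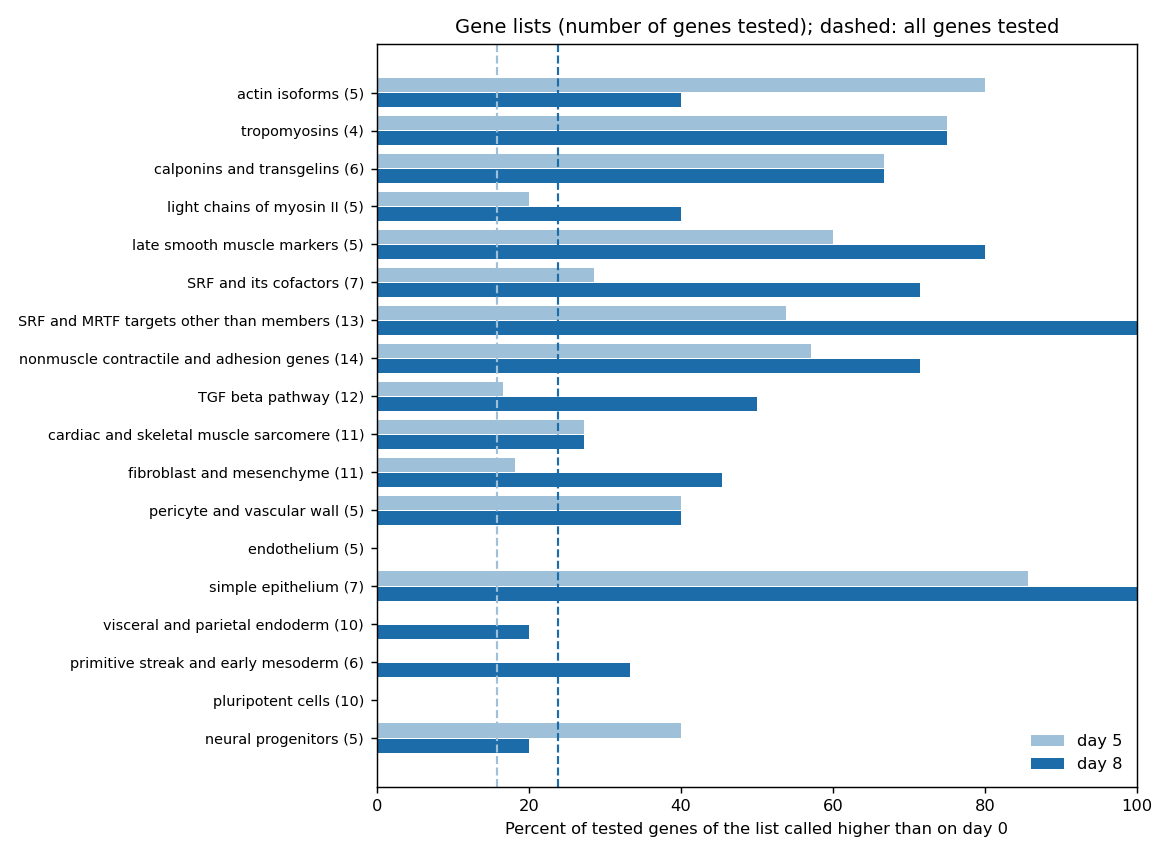
Percentage of the tested genes of each list called higher than on day 0 (x axis) on day 5 (light bars) and day 8 (dark bars), with the number of genes tested in brackets. Dashed lines give the share among all genes tested, 15.8% on day 5 and 23.9% on day 8. Simple epithelium and SRF and MRTF targets reach 100% on day 8, and endothelium and pluripotent cells have no gene called higher.

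The libraries labelled double and single differed in several members. Over days 1 to 8, with day and line in the limma fit, Myl9 differed by -1.53 ± 0.24 on the log2 scale (double minus single, SE, adjusted p = 1.76e-05), Cnn1 by -1.28 ± 0.21 (5.58e-05) and Tagln by -1.02 ± 0.19 (0.00018). These 3 of 7 members were called lower in double libraries, and 1.61% of all genes were. Tpm1 (-0.38 ± 0.08, adjusted p = 0.00057) and Tpm2 (-0.86 ± 0.28, 0.027) passed the p but not the fold. Acta2 (-0.65 ± 0.26, 0.075) did not pass, and Cald1 stood at -0.02 ± 0.12. The value of Tpm2 rested on the fit: it was -0.15 by voom (adjusted p = 0.61) and -0.52 to -1.20 when any replicate was left out (adjusted p = 0.092 to 0.35), and the p was also lost with all 9 days and in each line alone. In 16 pairs of a line and day the single library was higher in 16 for Tpm1, 15 for Tagln and Myl9, 13 for Cnn1, 12 for Tpm2, 9 for Acta2 and 7 for Cald1. For Acta2 the other 7 pairs had no read in either library. Within X14 alone Myl9, Cnn1 and Tagln differed by -1.78, -1.39 and -1.11, and within X18 alone by -1.28, -1.18 and -0.93, the last below the fold minimum. With the culture as a random effect the same estimates had limma adjusted p of 2.51e-06, 8.68e-06 and 3.23e-05. Line and label together set the culture and were already in the fit. This setting can therefore hardly measure the spread between cultures, and its smaller p adds no support.

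The difference varied from day to day. In a comparison by day chosen after the values were seen, Tpm2 was called lower in double libraries on day 2 (-2.99 ± 0.54, SE, adjusted p = 0.0045), when 0.575% of all genes were. Tpm2 then had 9 reads in X14 double and 1 in X18 double, against 11 and 24 in their single partners. On day 3 Tpm2 (-2.39 ± 0.54), Cnn1 (-2.35 ± 0.53) and Myl9 (-3.04 ± 0.49) were called, against 1.44%. In X14 and X18 double, Tpm2 then had 6 and 6 reads, Cnn1 0 and 0, and Myl9 1 and 5. Their single partners had 46 and 36, 7 and 5, and 21 and 27. The value of Cnn1 thus rests on the 0.9 read written for a library without reads. On day 4 Cnn1 (-1.98 ± 0.53) and Myl9 (-3.06 ± 0.49) were called, against 1.01%, and on day 5 Acta2 (-3.53 ± 0.47, adjusted p = 0.00013), against 1.59%. On day 4 Myl9 had 5 and 3 reads in X14 and X18 double, against 33 and 33 in single. Cnn1 had 12 and 10 against 39 and 50. For Acta2 the 2 double libraries of day 5 held 0 and 4 reads and the 2 single libraries 23 and 59, and the X14 double library was the shallowest of the series. From day 6 to day 8 no member was called in this comparison. Without day 5 the difference of Acta2 over the other days was -0.23 (adjusted p = 0.39).

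**Figure D5:**
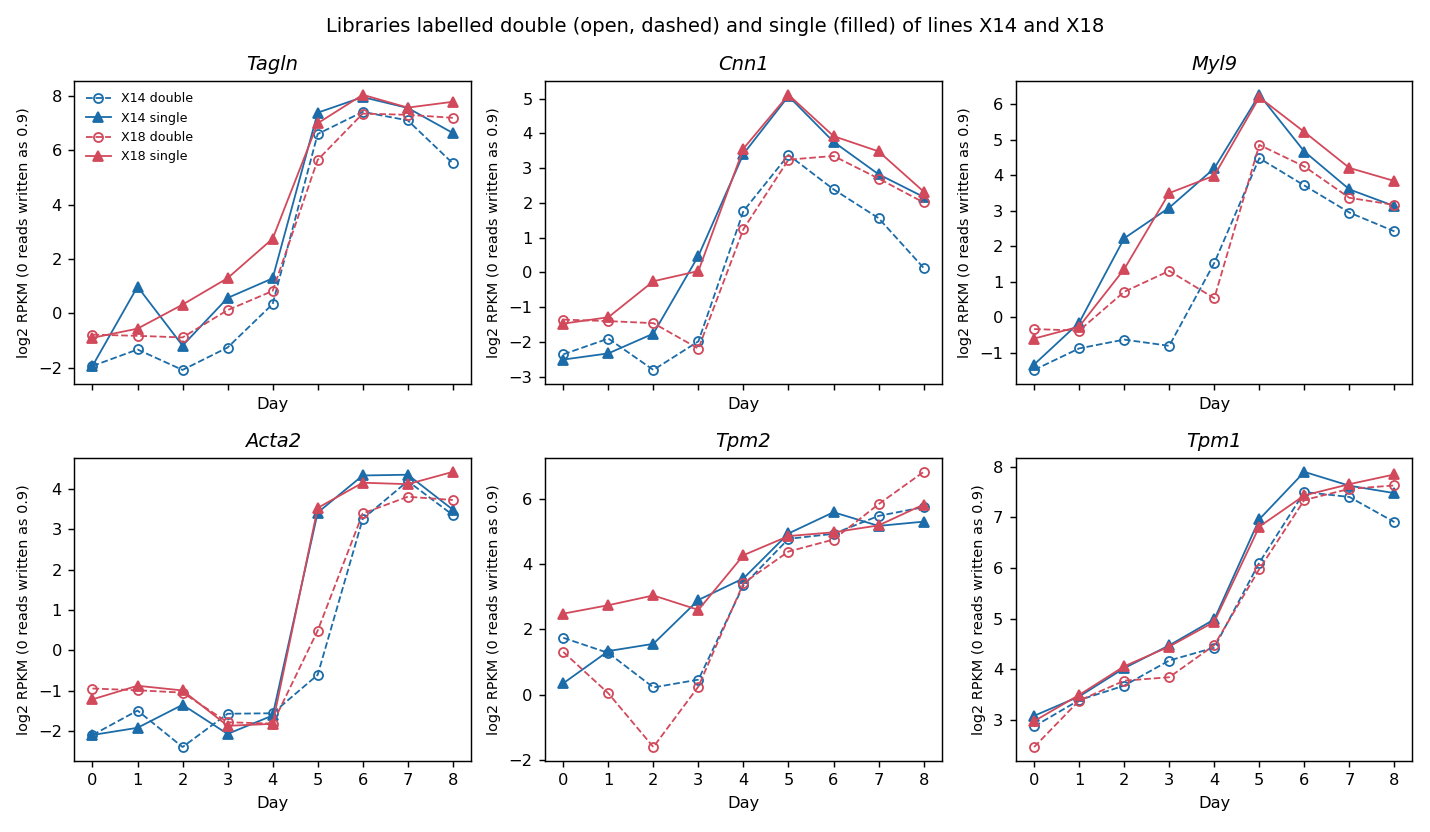
Level of 6 members in every library as log2 RPKM (y axis, a gene without a read written as if it had 0.9 read) against day (x axis), with filled triangles and solid lines for single, open circles and dashed lines for double, blue for X14 and red for X18. Myl9 and Cnn1 lie lower in the double libraries of both lines on days 3 to 5, Acta2 does so on day 5, and for Tpm2 the order turns after day 6.

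In the limma fit Tpm2 was the only member whose difference between the labels changed between days 1 to 4 and days 5 to 8 past the threshold, whereas voom called 2 members. The single library was higher in 8 of 8 pairs on days 1 to 4 and in 4 of 8 on days 5 to 8. On day 2 the levels were 1.17 (X14 double), 2.94 (X14 single), 0.33 (X18 double) and 8.20 RPKM (X18 single), whereas on day 7 they were 44.3, 35.9, 56.8 and 36.2 and on day 8 53.4, 39.3, 113 and 56.4. Both double libraries were above their single partners on days 7 and 8. The change of the difference was 1.93 ± 0.45 (SE, log2 scale, adjusted p = 0.0096), and 4.09% of all genes were called in this comparison either way. The call was lost without replicate 3 or without replicate 4 (0.99), with day 0 added (1.55, adjusted p = 0.10), and in each line alone (0.99 in X14 and 2.87 in X18). In Myl9, Acta2 and Cald1 the change had an unadjusted p under 0.05 and was not called.

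Other markers moved with the labels as well. The median difference of X-linked genes, less that of autosomal genes, was above 0 (double minus single) in each of the 16 pairs. It was 0.25 to 1.05 on the log2 scale. Of the 5 late smooth muscle markers tested, 1 was called, Des, which was lower in double libraries (-1.09 ± 0.22, SE, adjusted p = 0.00059). Smtn (-0.43) and Nexn (-0.71) were below 0 as well, and Synpo2 (0.79) and Lmod1 (0.46) were above 0, without a call. Of the 10 pluripotent cell genes, 3 were higher in double libraries and 0 lower, with a median of 0.52 against -0.04 for all genes. Of all 14612 genes tested, 663 were called between the labels, 235 of them lower in double libraries. The pluripotent list summed to 137 to 2495 RPKM in double and 248 to 1912 in single libraries of days 1 to 8 (medians 784 and 588), with all 10 genes detected. The simple epithelium list summed to 79.0 to 4018 and 137 to 2408 RPKM (medians 608 and 718), with 1 gene called lower in double. The late smooth muscle list summed to 2.47 to 26.2 RPKM in double and 6.32 to 27.0 in single. The part of these differences in those of the members was not tested.

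The lines X14 and X18 did not differ in any member past the threshold. The 7 members ranged from -0.10 to 0.52 on the log2 scale (X18 minus X14), 2 of them, Tagln and Cnn1, had an unadjusted p under 0.05 in limma, and 0 were called by limma or by voom. Of all genes tested 0.0137% were called. The change of the line difference between days 1 to 4 and days 5 to 8 was called for 0 members (0 at an unadjusted p under 0.05, 0 by voom) and for 0% of all genes.

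The genes with the courses most like the members over the 36 libraries were found by the root mean square difference of log2 values after centring each gene on its own mean, among 9402 genes whose mean was 10 RPM or more. Tpm1 and Cald1 were each other's nearest gene, at 0.45. Next to Tpm1 came the paralogue Cnn2 (0.51) and Lrrfip1 (0.66), and next to Cald1 came Ptpn14 (0.62) and Lrrfip1 (0.63). The nearest to Myl9 was Cnn1 (0.94), followed by Dusp4 (0.97) and Prph (1.03), and the nearest to Cnn1 were Mapk12 (0.71), Sv2a (0.72) and Pdlim3 (0.86). Acta2 was nearest to Bmp1 (0.68), Sept4 (0.76) and Ppp4r4 (0.82), and Tpm2 to Capg (0.60), Lsr (0.77) and Gcnt1 (0.80). Tagln had no close neighbour, with Cxcl16 (1.31), Thbs1 (1.35) and Krt18 (1.43) as the nearest. The libraries of a day share their time point, so the measure is a description of 36 points and carries no test.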

How the data were processed

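RNA was measured in 36 libraries, 4 on each of 9 days, and groups were taken from the library titles. According to the study's methods, 75 bp single-end reads were trimmed, mapped against the mm10 build by tophat or hisat2, with quantification in SeqMonk. The submitters' processing notes name bcl2fastq and TopHat2 2.0.12. The annotation version and the strand setting are not given in the sources used here. The authors deposited log2 values, which behave as log2 RPKM, with a gene without reads written as if it had 0.9 read. Whole reads were recovered from 100% of values, and 49.29% of values had none. All 36 value columns were mapped and 0 were left over.

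The values were tested with limma 3.58.1 (lmFit, eBayes with trend) in R 4.3.3 with all 36 libraries and day as the factor, or with 32 libraries of days 1 to 8 and day, line and label. Since values were log2 and not counts, no count model was the main test. Voom in limma on the recovered reads was an alternative. Tests were two-sided, with Benjamini-Hochberg adjustment over 14612 genes. A ratio to a day 0 total of 1 to 3 reads was given with a 95% exact counting interval, and a gene without reads on day 0 was compared with a floor of 3 reads per library. Intervals and floors cover counting error only. The model fit was tested on simulated data. Same-numbered libraries share line and label by their titles. Their deviations from the day means had a mean correlation of 0.13 (range -0.58 to 0.52), against -0.04 for other numbers (-0.64 to 0.70). Deviations sum to 0 within a day, so these means are not independent. No pair of libraries looked like a repeat of the same library, since the lowest chi-square per gene was 1.24.

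The members and the 18 gene lists were chosen with earlier results of these data known. Named genes were the members, their paralogues, SRF with its cofactors, late smooth muscle markers, at most 3 genes with the highest mean RPM of any other list, and the 3 genes most like each member. Genes of a list that had to be named for a count or a 0 were chosen after their values were seen.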

Additional observations from a re-analysis of the deposited data

Results flagged for a closer look

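In 47 groups of 4 libraries of a day in which a member had at least 10 reads in its highest library, 1 stood out by Dixon's test at the 95% level, and chance flags about 1 in 20 groups. On day 8 the level of Cnn1 in X14 double was 1.10 RPKM (5 reads), while the other 3 libraries stood at 4.04, 4.51 and 5.02 RPKM. The difference of Tpm2 between double and single libraries changed by 1.93 on the log2 scale between days 1 to 4 and days 5 to 8, by the interaction term of the limma fit.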

How the results depend on the processing

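The depth limits the low members most, since 3 reads already correspond to up to 3.90 RPM. Counts of members called moved by over 1.5 times in few comparisons, all with few calls. Day 2 against day 0, with 1 member, had 0 after scaling to the 75th percentile, after quantile normalization, with voom and with only the 2 days compared, and 2 without a minimum fold change or with the replicate block, and the range was 0 to 2 when a replicate was left out. The replicate block, which pairs libraries by line and label, moved no other count by more than 1.5 times. Day 3 against day 0, with 2 members, had 1 with only the 2 days compared and 1 to 3 without a replicate. Day 4 against day 3, with 2, had 1 after quantile normalization, without a filter, with genes averaging 10 RPM or more, and with only the 2 days, and 1 to 2 without a replicate. Day 5 against day 4, with 4, had 7 with voom. Day 6 against day 5, with 3, had 1 without the library of day 5 replicate 1, an alternative chosen after seeing the data, and 1 to 3 without a replicate. For double minus single, 3 members became 5 without a minimum fold change. The change of the label difference, with 1 member, had 2 with voom and 0 with all 9 days, in X14 alone and in X18 alone, and 0 to 1 without a replicate. Cald1, which did not differ between labels, turned to 0.0060 after scaling to the 75th percentile, 0.040 after quantile normalization, 0.070 in X18 alone and 0.11 without day 5, with a range of -0.11 to 0.070 without a replicate. Of 360 values of single members under the alternatives, 337 kept their direction and side of the threshold. For Acta2 the label difference had an adjusted p of 0.028 by voom and 0.038 with the culture as a random effect. The latter setting can hardly measure the spread between cultures. For Tpm1 the adjusted p was 0.085 without replicate 2. Of 468 counts of listed genes called higher under the alternatives, 31 moved by over 1.5 times. Among genes averaging 10 RPM or more, where fewer genes were tested, day 8 had 1 late smooth muscle marker instead of 4, 2 genes of SRF and its cofactors instead of 5, 1 pericyte gene instead of 2, and 0 sarcomere, fibroblast or endoderm genes instead of 3, 5 and 2. Without a filter 1 endothelium gene was called instead of 0. For day 5, leaving out replicate 1 gave 4 genes of SRF and its cofactors instead of 2, and leaving out replicate 3 or replicate 4 gave 4 nonmuscle contractile genes instead of 8. The causes were not tested. Where a replicate left out leaves 1 library in an arm of the labels, that library is assumed to vary like the others.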
